A study of Mus musculus with 6 samples.

Results

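The 33 genes described here are genes of Schwann cells, the glia that wrap and myelinate the axons of peripheral nerves. They were taken by symbol from a fixed list of peripheral myelin genes, Schwann cell regulators and genes of non-myelinating or repair Schwann cells. All 33 were found among the 55809 gene symbols of the files, and all 33 were among the 20146 genes that passed a filter on low counts. Polyadenylated RNA was sequenced from dorsal root ganglia, the nerve-root swellings in which sensory neurons lie among their glia, from C57BL6J mice aged 8 weeks. The control group was 3 pools from offspring of undisturbed dams. The prenatal stress group was 3 pools from offspring of dams restrained in tubes under a bright light, in sessions of 30 minutes held 3 times daily. The stress ran from embryonic day 13.5 to 18.5 per the series design and from day 13 to 18 per the protocol. Every pool held ganglia of 3 mice, and no allele or agent was given to either group. The labels name no litter, cage, spinal level or library batch for a pool, so p-values measure the spread between these pools. Male and female mice were used per the labels, while the X-inactivation transcript Xist had 9 to 19 counts per pool and the Y-linked gene Ddx3y 4164 to 7068 counts per pool.

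A myelinating Schwann cell lays down a compact sheath around a stretch of 1 axon, and non-myelinating Schwann cells hold bundles of thin axons. Neuregulin on the axon acts through the receptor pair Erbb2 and Erbb3, and the adhesion receptor Adgrg6 raises cyclic AMP. These signals lead through Sox10 and Pou3f1 to Egr2, the transcription factor that switches on myelin genes. After nerve injury Schwann cells leave this state and take on a repair state, in which genes such as Shh and Olig1 come on. In bulk tissue, fewer cells of a type and less RNA per cell cannot be told apart.

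The comparison asked whether these transcripts differed in the adult ganglion between offspring of stressed and of undisturbed dams. None of the 33 genes passed the test in either direction (edgeR quasi-likelihood test with Benjamini-Hochberg adjustment over all genes; smallest adjusted p = 0.337). Among all 20146 genes, 0.0844% were called higher and 0.0447% lower. With no adjustment, p was under 0.05 for 1 member with a higher level in stress pools, the sodium channel gene Scn7a, and for 2 with a lower level, Ncmap and Dhh. The same threshold was passed by 6.01% of all genes in the higher direction and 5.11% in the lower. The fold changes of the members were small, with 12 positive and 21 negative log2 values from -0.27 to 0.18. Their median was -0.05, beside 0.01 for all genes tested. The 3 stress pools lay below the 3 control pools, with no overlap, for 3 members, Ncmap, Ncam1 and S100b, and above them for 0. Among all genes, 8.76% were separated in the lower direction and 9.33% in the higher, so 3 of 33 was near the background.

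Depth was 65046802 to 87421228 gene counts in control pools and 51749334 to 77603221 in stress pools, with the fewest in stress pool 3. The members took 0.855% to 0.902% of the gene counts in control pools and 0.791% to 0.924% in stress pools. Levels below are CPM (counts scaled to a common library total) with TMM scaling, a correction for differences in library composition, and fold changes are log2 values ± SE from the edgeR fit. The ganglion's own marker genes were present, with the sensory neuron gene Prph at 1032 to 1078 CPM in the 6 pools.

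Compared per kb of the longest annotated transcript, the levels of the members spanned a wide range. Pmp22, a membrane protein of compact myelin, was the highest at a mean of 1152 CPM per kb over the 6 pools. Next came the calcium-binding protein S100b at 401 CPM per kb and myelin basic protein (Mbp) at 374 CPM per kb. The pools of S100b (374 to 415) and of Mbp (308 to 431) overlapped on this scale, so these genes were not ordered beyond their spread. The adhesion molecule L1cam followed at 142 CPM per kb and periaxin (Prx) at 108 CPM per kb. At the low end were Mpzl2 at 1.92, Pou3f1 at 0.808 and Pmp2 at 0.196 CPM per kb. The Pmp2 value, and so its place in the order, may be too low owing to the shared exon bases described below. Of the 32 neighbouring pairs in this order, 19 overlapped between pools and 13 did not.

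**Figure D1:**
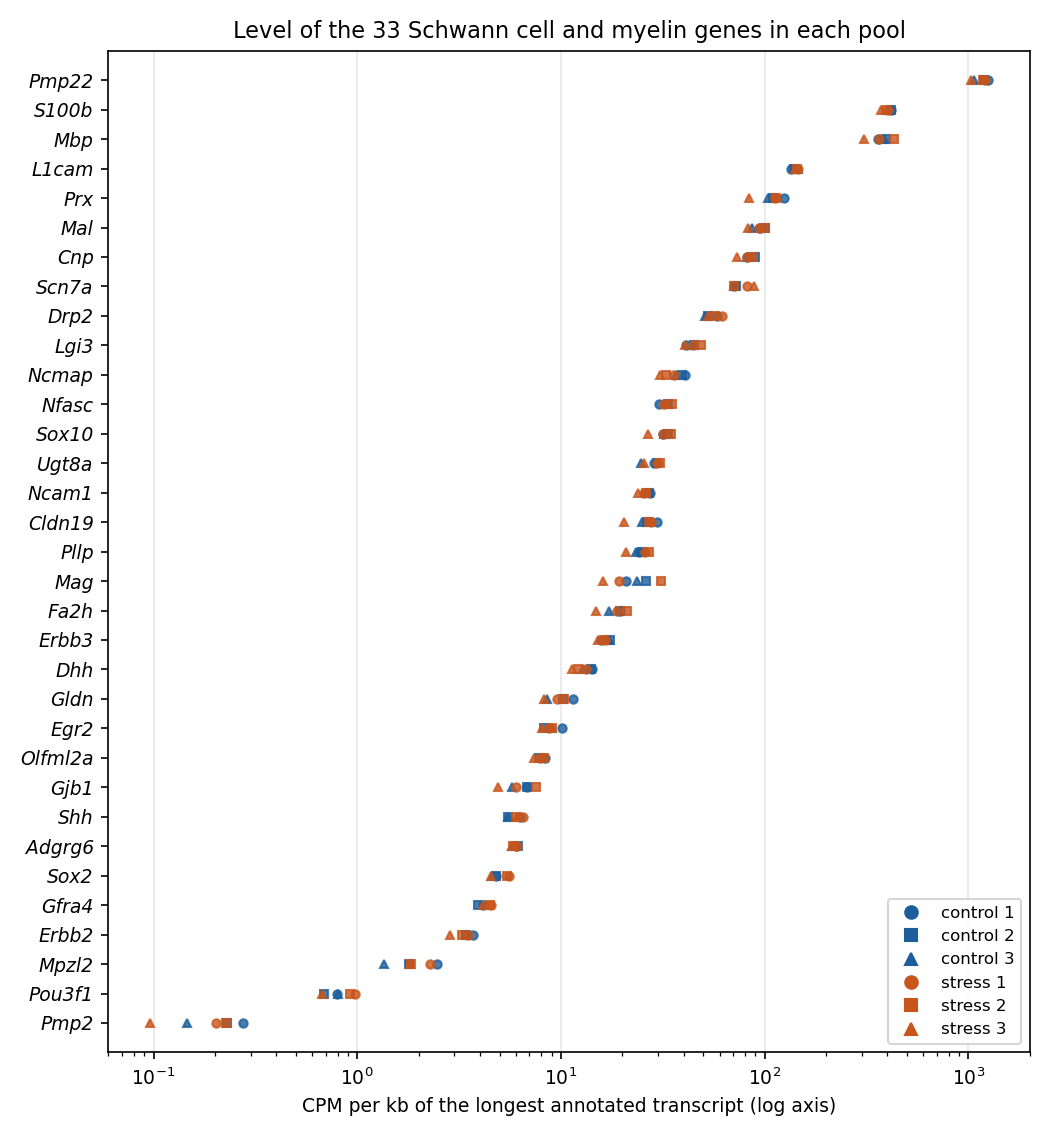
Level of each of the 33 genes in each pool, in CPM per kb of the longest annotated transcript on a log axis; blue symbols are control pools and orange symbols prenatal stress pools. Pmp22 is the highest and Pmp2 the lowest, and for most genes the 6 pools lie close together beside the distance between genes.

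Among the compact myelin genes, Mbp, which holds the cytoplasmic faces of the membrane together, stood at 1723, 1897 and 1854 CPM in control pools 1 to 3 and at 1739, 2067 and 1475 CPM in stress pools 1 to 3. The stress pools held both the highest and the lowest value, and the log2 fold change was -0.05 ± 0.11 (adjusted p = 0.907). Pmp22 stood at 2270, 2183 and 1932 CPM in controls and 2191, 2142 and 1872 CPM in stress pools, a log2 fold change of -0.04 ± 0.08. Here pool 3 of each group was the lowest of its group. The raft proteolipids Mal (-0.03 ± 0.07) and Pllp (0.03 ± 0.09) overlapped between groups as well. Pmp2, a fatty acid binding protein of the sheath, had only 7 to 27 counts per pool and a log2 fold change of -0.27 ± 0.37. In GENCODE M21, 1224 bases of Pmp2 exons are shared on the same strand with the gene Gm37389, which had 0 counts in all pools. Reads that a counter assigns to neither gene in such a stretch are missing from the Pmp2 values, so its level may be too low.

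The proteins that shape the sheath outside compact myelin included the gene with the smallest p among the 33. Ncmap, a membrane protein of non-compact myelin, stood at 81.2, 78.6 and 73 CPM in controls and at 71.9, 65.5 and 61 CPM in stress pools. All stress pools lay below all control pools, with 77.6 ± 4.19 against 66.1 ± 5.45 CPM (SD, n = 3 pools each). The log2 fold change was -0.23 ± 0.07, with an unadjusted p of 0.00993 and an adjusted p of 0.337 in the edgeR test. The DESeq2 Wald test called it lower (-0.23, adjusted p = 0.0385), the only member called by any of the 15 alternative settings. Over all 20146 genes that test called 161 higher and 174 lower, beside 17 and 9 in the main edgeR test. Over those settings the adjusted p of Ncmap ranged from 0.0385 to 0.634, and its log2 fold change from -0.30 to -0.18.

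The scaffold genes around it did not separate. Prx, which links the membrane to the cytoskeleton through Drp2, stood at 673, 599 and 561 CPM in controls and 612, 615 and 455 CPM in stress pools (-0.12 ± 0.12). Stress pool 3 was far below the other 5 pools, which overlapped. Drp2, its dystrophin-related partner, had a positive value of 0.08 ± 0.07, with stress pool 1 the highest at 442 CPM and control pool 3 the lowest at 365 CPM. The tight junction protein Cldn19 stood at 123, 110 and 103.8 CPM in controls and 115, 112 and 85.2 CPM in stress pools (-0.11 ± 0.12). Again only stress pool 3 lay outside the range of the controls. Gjb1, the gap junction protein connexin 32 that is mutated in an inherited neuropathy, stood at 9.14 to 10.7 CPM in controls. Its stress pools 1 to 3 stood at 9.58, 12 and 7.75 CPM, on both sides of the controls (-0.06 ± 0.15). The nucleotide phosphodiesterase Cnp had a value of -0.06 ± 0.07, and 154 bases of its exons overlap Dnajc7 on the opposite strand. The adhesion lectin Mag, found on the inner face of the sheath towards the axon, had the widest spread of these genes and is described with the central myelin markers below.

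Of the myelin lipid enzymes, Fa2h, which makes hydroxylated fatty acids, stood at 43.1 to 48.4 CPM in controls and at 46.8, 52.6 and 37 CPM in stress pools (-0.04 ± 0.12). Ugt8a, which makes galactosylceramide, stood at 93.4 to 111 CPM in controls and 96 to 115 CPM in stress pools (0.05 ± 0.09). Neither gene separated the groups.

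Sequence before the start site was available from RefSeq (GRCm38.p6) for 22 of the 33 genes, in 39 windows of 250 bases that end at an annotated start. The windows were searched on both strands for ACAAAG, a core bound by Sox proteins, and GTGGGCG, a core bound by Egr proteins. Matches to both motifs could share up to 2 bases. Windows of 1 gene can overlap, so that Cldn19 and Mag each count the same match in 2 windows. By gene, ACAAAG was found for 5 of 22 members (22.7%) beside 18.6% of all 27025 genes with a window. GTGGGCG was found for 4 of 22 (18.2%) beside 7.98% of all. Members had more windows per gene (39 for 22) than all genes did (32851 for 27025), so shares by gene are not like for like. By window, the shares were 17.9% beside 16.5% of all 32851 windows for ACAAAG and 12.8% beside 7.02% for GTGGGCG. One window of Gjb1 held both, as did 0.758% of all windows. A match is a run of letters and not a measured binding site. Printed here are that window of Gjb1 (chrX:101383482-101383731, plus strand), and windows of Cldn19 (chr4:119255191-119255440, plus strand) and Mag (chr7:30914864-30915113, minus strand), which hold 1 match each. No window of Ncmap, the gene with the smallest p, holds a match, and 1 of them is printed (chr4:135398228-135398477, minus strand). Capitals mark the matches on either strand, and each run is written 5′ to 3′ along the gene's strand.
Gjb1: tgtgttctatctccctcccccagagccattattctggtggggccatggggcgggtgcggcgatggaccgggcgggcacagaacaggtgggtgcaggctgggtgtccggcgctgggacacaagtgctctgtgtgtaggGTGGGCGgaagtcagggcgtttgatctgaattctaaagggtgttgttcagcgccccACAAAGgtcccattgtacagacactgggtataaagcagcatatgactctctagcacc
Cldn19: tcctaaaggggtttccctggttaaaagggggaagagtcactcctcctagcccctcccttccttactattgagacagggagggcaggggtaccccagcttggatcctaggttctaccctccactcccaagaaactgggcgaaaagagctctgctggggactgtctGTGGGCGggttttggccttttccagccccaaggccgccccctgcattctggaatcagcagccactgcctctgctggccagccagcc
Mag: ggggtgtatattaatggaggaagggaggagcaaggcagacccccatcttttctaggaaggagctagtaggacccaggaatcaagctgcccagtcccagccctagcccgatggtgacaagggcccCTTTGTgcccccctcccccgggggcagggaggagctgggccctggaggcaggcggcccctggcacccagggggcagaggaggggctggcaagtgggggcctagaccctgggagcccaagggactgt
Ncmap: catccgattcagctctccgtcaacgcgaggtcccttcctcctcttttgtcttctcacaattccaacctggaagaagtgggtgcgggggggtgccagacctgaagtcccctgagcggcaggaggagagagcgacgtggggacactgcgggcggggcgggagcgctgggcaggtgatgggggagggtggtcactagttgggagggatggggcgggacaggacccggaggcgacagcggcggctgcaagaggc

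The transcription factors of the lineage overlapped between groups. Sox10, which all Schwann cells need, stood at 88.5, 92.7 and 89.2 CPM in controls and 88.5, 96.8 and 74.4 CPM in stress pools (-0.06 ± 0.09). Its control pools were within a few CPM of each other, and stress pools 2 and 3 lay on either side of them. Egr2, the master regulator of myelination, stood at 30, 24.4 and 26.8 CPM in controls and 26, 26.9 and 24 CPM in stress pools (-0.08 ± 0.08). Pou3f1 (Oct6), a factor of the promyelinating stage, stood at 3.07, 2.63 and 3.09 CPM in controls and 3.73, 3.57 and 2.58 CPM in stress pools (0.17 ± 0.16). Sox2, a factor of immature and repair Schwann cells that holds back myelination, stood at 9.9, 9.84 and 9.48 CPM in controls and 11.5, 11.2 and 9.33 CPM in stress pools (0.13 ± 0.09). For Pou3f1 and Sox2 alike, stress pools 1 and 2 were above all controls and stress pool 3 below them. Without stress pool 3 the values were 0.31 for Pou3f1 (adjusted p = 0.501) and 0.21 for Sox2 (adjusted p = 0.403).

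Of the receptors, Erbb2 stood at 18.5, 17.1 and 17.4 CPM in controls and 17.6, 16.3 and 14.3 CPM in stress pools (-0.13 ± 0.08), and its partner Erbb3 had a value of -0.07 ± 0.05. Adgrg6, which Schwann cells need to start myelination, was the most even of the 4 receptors, at 37.4 to 39.8 CPM in controls and 37.4 to 39.8 CPM in stress pools (-0.02 ± 0.04). Gfra4, a co-receptor of the GDNF family, had a positive value of 0.10 ± 0.07. Its stress pools stood at 8.1, 8.06 and 7.38 CPM, and the lowest of them equalled control pool 1 to 3 digits.

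Among secreted proteins, desert hedgehog (Dhh), the Schwann cell signal that organises the perineurium, stood at 59.9, 59.4 and 54.1 CPM in controls and 56.2, 51.4 and 48.2 CPM in stress pools. Stress pool 1 lay above control pool 3, so the groups overlapped by that pair. The log2 fold change was -0.16 ± 0.06, with an unadjusted p of 0.0461 and an adjusted p of 0.446 in the edgeR test. Dhh shares 546 exon bases on the same strand with Rhebl1, and reads from that stretch cannot be given to 1 gene. Sonic hedgehog (Shh), a gene of the repair state, had a value in the other direction. It stood at 17.8, 15.7 and 15.7 CPM in controls and 18.6, 17.1 and 17.4 CPM in stress pools (0.11 ± 0.07, adjusted p = 0.586), with control pool 1 inside the stress range. The leucine-rich protein Lgi3 (0.03 ± 0.07) and the matrix protein Olfml2a (-0.05 ± 0.05) overlapped between groups.

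Of the node and adhesion genes, gliomedin (Gldn), which gathers sodium channels at the node of Ranvier, stood at 53.3, 47.4 and 39.9 CPM in controls and 44.7, 48.3 and 38.6 CPM in stress pools (-0.09 ± 0.12). The control pools alone spanned nearly the whole range of the 6 pools. Neurofascin (Nfasc), whose forms sit on both axon and glia, had a value of 0.04 ± 0.06 and L1cam one of 0.04 ± 0.04. Ncam1, an adhesion molecule of non-myelinating Schwann cells that neurons also make, stood at 179, 178 and 172 CPM in controls and 168, 171 and 157 CPM in stress pools. Its groups did not overlap, though control pool 3 and stress pool 2 were close (-0.09 ± 0.04, unadjusted p = 0.0529, adjusted p = 0.455, edgeR). Mpzl2, an adhesion protein of the immunoglobulin superfamily, varied more among controls than between groups, at 8.82, 6.39 and 4.84 CPM in controls (0.08 ± 0.21). Of its exons, 2138 bases lie opposite the annotated gene Gm48840, which had 3 to 6 counts per pool.

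S100b, a marker of Schwann cells, was tight in controls, at 615, 615 and 602 CPM, and stood at 595, 586 and 554 CPM in stress pools. The groups did not overlap, and the difference was small (-0.08 ± 0.04, unadjusted p = 0.0629, adjusted p = 0.472, edgeR). Scn7a, the sodium channel Nax found on non-myelinating Schwann cells and some neurons, had the largest positive value. It stood at 518, 530 and 521 CPM in controls and 603, 521 and 648 CPM in stress pools (0.18 ± 0.07, unadjusted p = 0.0462, adjusted p = 0.446, edgeR). Stress pools 1 and 3 were above all controls and stress pool 2 was among them. Its value was 0.25 without stress pool 2 (adjusted p = 0.231) and 0.10 without stress pool 3 (adjusted p = 0.665).

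**Figure D2:**
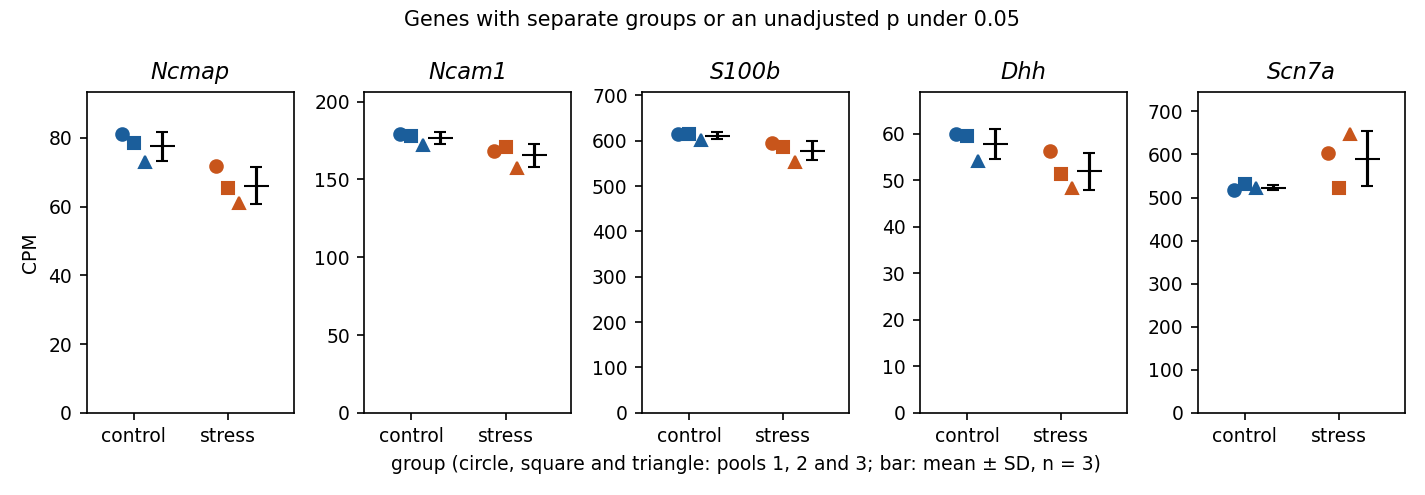
CPM in each pool for the 3 genes whose groups did not overlap (Ncmap, Ncam1, S100b) and the other genes with an unadjusted p under 0.05 (Dhh, Scn7a), with circles, squares and triangles for pools 1, 2 and 3, the mean ± SD (n = 3 pools) beside each group and axes from 0. The gaps between groups are small beside the level of each gene, and in Scn7a stress pool 2 lies among the controls.

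Stress pool 3 stood apart from the other pools for most members. It held the lowest value for 25 of the 33 genes, while it was the lowest pool for 23.6% of all genes tested. All 5 compact myelin genes, 6 of 7 scaffold and junction genes and all 4 transcription factors were lowest there. Its level was below the mean of the other 5 pools by 12.4% to 20.5% for Mbp, Pmp22, Mal and Pllp. Pmp2 was 55.5% below, at only 7 to 27 counts per pool. Mag was 33.7% below, Gjb1 25.8%, Prx 25.7% and Cldn19 24.5%. Some members stood level or higher there. L1cam was 0.454% and Nfasc 0.776% below the other pools, Shh 2.42% above and Scn7a 20.3% above.
Stress pool 3 also had the lowest depth. The summed level of 11 satellite glia markers was lower in all 3 stress pools (3517, 3446 and 3377 CPM in pools 1 to 3) than in controls (3708 to 3944 CPM). That of 11 red cell and marrow markers was highest in stress pool 3 (957 CPM, range 131 to 638 in the other 5). The 15 sensory neuron markers summed to 20931 CPM there and 21267 to 22039 CPM elsewhere. A control pool differed as well, since 10 skeletal muscle markers summed to 2877 CPM in control pool 3 and 19.3 to 64.3 CPM elsewhere. The part of these transcripts in the low myelin values, or in the values of control pool 3, was not tested.
Without stress pool 3, 20 of the 33 members had positive values and 13 negative, and their median log2 fold change was 0.03. Ncmap (-0.18), Ncam1 (-0.06) and S100b (-0.06) lay below the controls in the remaining stress pools, which leaving out a pool could hardly change. Pllp, Ugt8a, Pou3f1, Sox2 and Gfra4 then lay above all controls, 5 of 33 (15.2%). With only 2 stress pools, 13.9% of all genes were separated in each direction, so this share was near the background. By edgeR, 0 members were called in either direction. With stress pool 3 kept, the coefficient of variation between pools was larger in the stress group for 26 of 33 members, beside 58.4% of all genes.

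**Figure D3:**
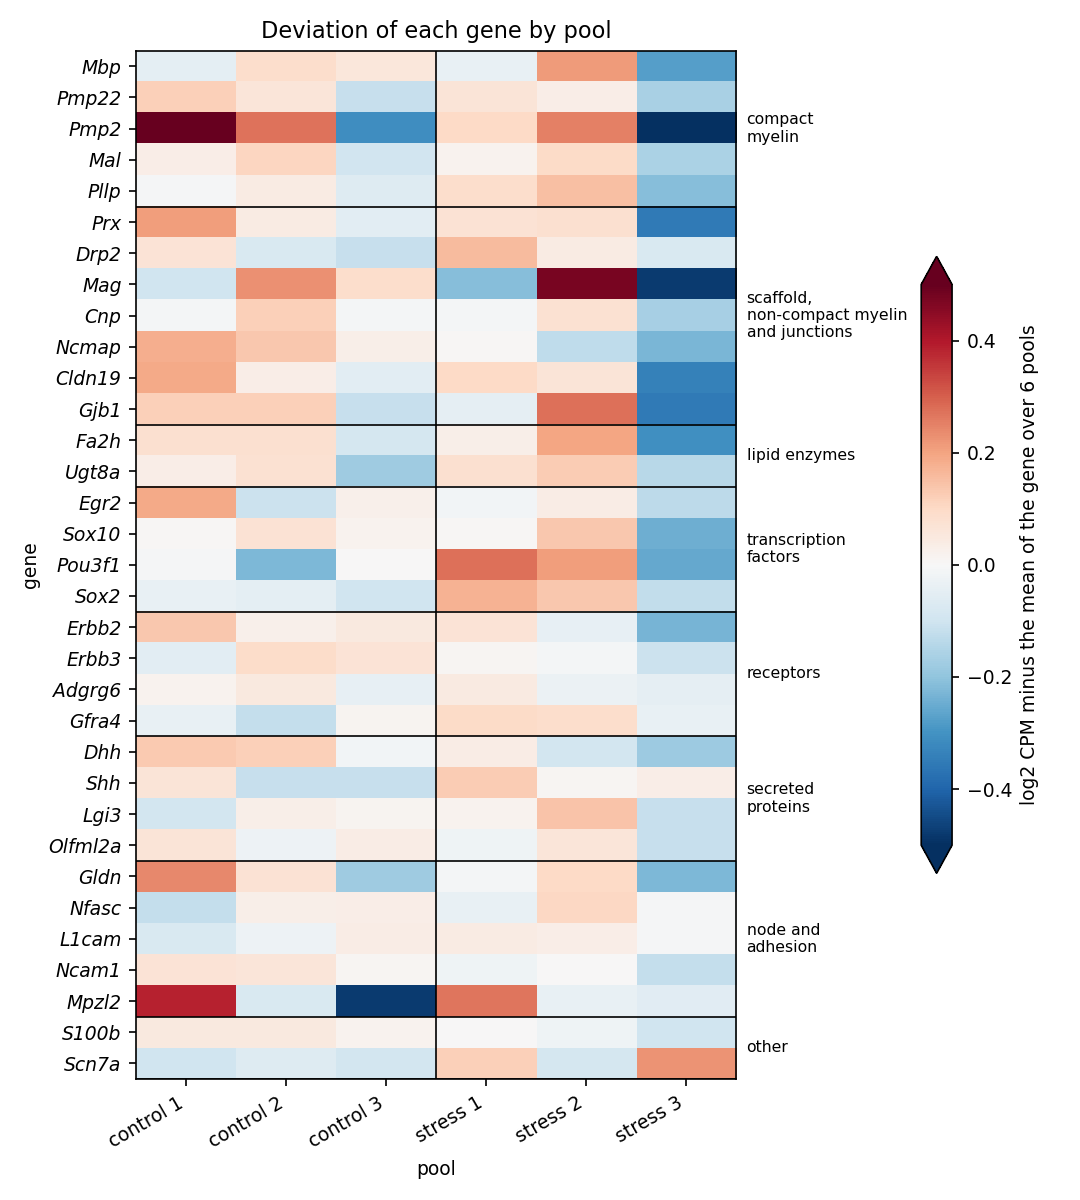
Log2 CPM of each gene in each pool minus the gene's mean over the 6 pools, grouped by role; colours stop at 0.5 in either direction. The stress 3 column is blue for nearly all myelin genes and red for Scn7a, while the other columns mix both colours.

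**Figure D4:**
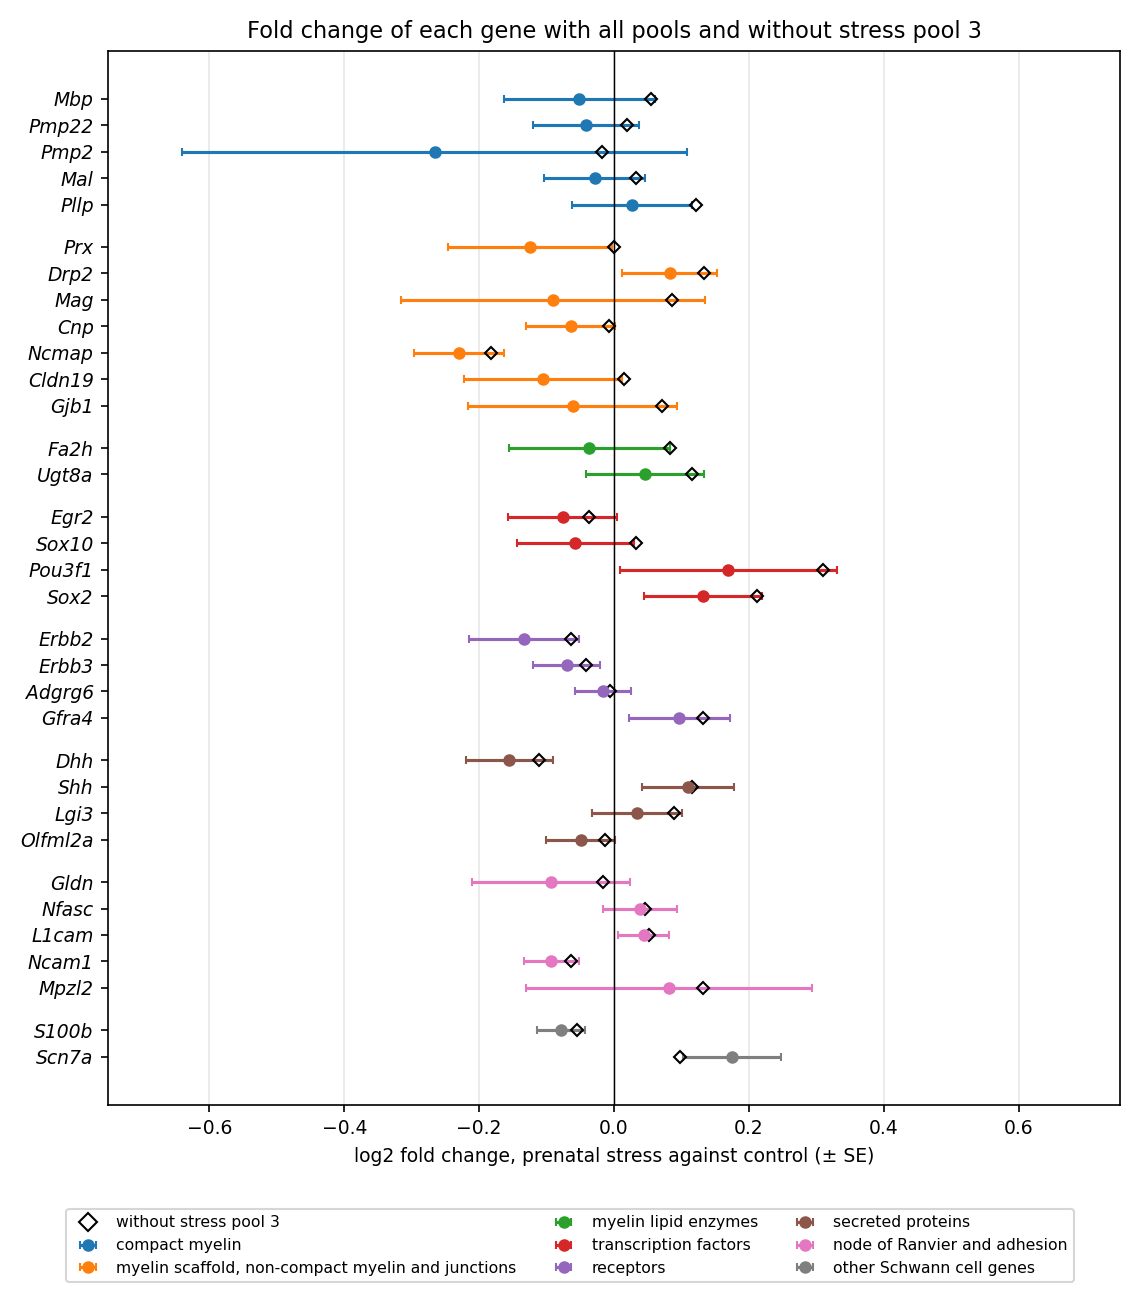
Log2 fold change of prenatal stress against control ± SE for each gene (filled circles, coloured by role) and the same value without stress pool 3 (open diamonds). Most values lie within 0.2 of 0, and leaving out that pool moves most myelin genes to the right, while Ncmap stays below 0 and Scn7a moves left.

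Several members are also made by oligodendrocytes, which myelinate the central nervous system, and defining markers of those cells differed widely between pools. Mog, a protein of central myelin, stood at 0.259, 7.56 and 5.99 CPM in controls and 0.504, 9.92 and 1.36 CPM in stress pools. Mobp stood at 14.4, 97.7 and 101 CPM in controls and 20.1, 131 and 41.9 CPM in stress pools. The lineage factor Olig2 had its highest levels, 1.22 and 1.21 CPM, in control pool 2 and stress pool 2. Control pools 2 and 3 and stress pool 2 were thus the high pools, and both groups held pools with little of these transcripts.
The summed level of the 14 tested oligodendrocyte markers was 251 to 339 CPM in control pools and 261 to 414 CPM in stress pools. Tspan2 alone stood at 120 to 132 CPM across pools, so the sum varied less than Mog or Mobp. For 12 of these 14 markers, control pools 2 and 3 and stress pool 2 were the 3 highest. Those pools were picked from markers on this list, so the count is a description and no test. None of the 14 markers was at 0 in all pools, and 0 had an unadjusted p under 0.05 between groups. Gjc3, a connexin on this list, had a log2 value of 0.39, which was 0.82 without control pool 1 and was then called higher by edgeR (adjusted p = 0.0307, and up to 0.879 under other alternatives).

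Mag had its 3 highest levels in those pools. It stood at 50.7, 63.7 and 57.7 CPM in controls and 46.8, 75.6 and 39 CPM in stress pools, with a log2 fold change of -0.09 ± 0.23. In the pools low in Mog, control pool 1 had 50.7 CPM and stress pools 1 and 3 had 46.8 and 39 CPM. Without stress pool 2 the value was -0.42 (adjusted p = 0.331), and with both pools numbered 2 left out it was -0.34 (adjusted p = 0.618). Mbp, Sox10 and Nfasc also had their 3 highest levels in those 3 pools, which makes 4 of 33 members, beside 6.72% of all genes. The myelin members were not uniform in this. Over the 3 control pools, 16 of 33 members, Pmp22, Prx, Cldn19 and Ncmap among them, were highest in control pool 1, where Mog was at its lowest. Another 13, among them Mal, Cnp, Pllp and Ugt8a, were highest in control pool 2, and 4 in control pool 3. The part of central myelin in the levels of Mag and Mbp was not tested.

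**Figure D5:**
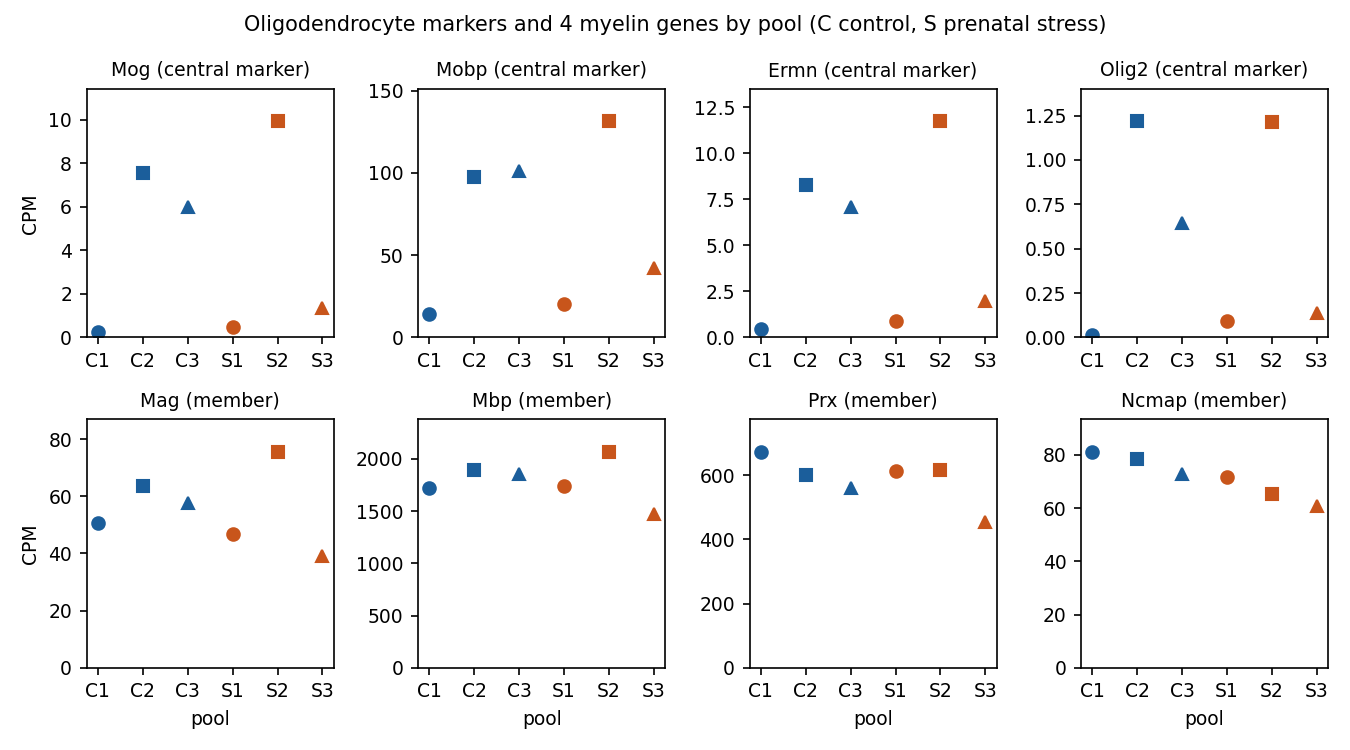
CPM in each pool of 4 oligodendrocyte markers (top) and 4 members (bottom), with C for control and S for prenatal stress pools and axes from 0. Mog, Mobp, Ermn and Olig2 are high in C2, C3 and S2, and Mag has its 3 highest levels in the same pools, while Prx and Ncmap do not.

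The other genes of the Schwann cell pathway were 125 symbols outside the member list. Of 124 tested, 62 had positive and 62 negative values, 0 were called in either direction, and the median was 0.00. With no adjustment, p was under 0.05 for 9 genes with a higher and 8 with a lower level, and 11 genes were separated in the higher and 13 in the lower direction, beside the shares of all genes given above (6.01% and 5.11% by p, 9.33% and 8.76% separated).
Among 12 ligands and proteases, the neurotrophin Bdnf had the smallest p. It stood at 59.8, 57.7 and 56.4 CPM in controls and 43.1, 35.7 and 44.4 CPM in stress pools (-0.50 ± 0.08, adjusted p = 0.119, edgeR), with separate groups. Sensory neurons make Bdnf as well as Schwann cells do. DESeq2 (adjusted p = 1.12e-06) called Bdnf lower. So did edgeR without a low-count filter (0.0122), with GC and length offsets (0.0444) or with those and the replicate block (0.0316). The adjusted p of Bdnf ranged from 1.12e-06 to 0.53 over the 15 alternatives. The DESeq2 calls here and below stand beside 161 higher and 174 lower over all genes. Lgi4, a Schwann cell ligand that is also used as a satellite glia marker, had a value of -0.20 ± 0.05 (adjusted p = 0.291, and 0.0146 to 0.634 over the alternatives), and the neurotrophin Ntf3 one of 0.55 ± 0.22 at 0.367 to 0.755 CPM. Axonal neuregulin (Nrg1), the main ligand of Erbb3, stood at 116 to 122 CPM in controls and 112 to 120 CPM in stress pools (-0.01 ± 0.04) and was named after its value was seen.

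The 16 receptors and matrix contacts had 8 positive and 8 negative values, led by the growth factor receptor Igf1r (0.13 ± 0.04), the glial receptor Gpr37l1 (-0.26 ± 0.09) and the lysophosphatidic acid receptor Lpar1 (-0.09 ± 0.04). Of 20 signalling genes, 10 had positive values, with Tead1, a partner of Yap1, at -0.13 ± 0.05, the kinase subunit Pik3ca at 0.12 ± 0.05 and the small GTPase Cdc42 at -0.07 ± 0.03. Of 25 tested transcription and chromatin genes, 10 had positive values. The zinc finger factor Egr3 stood at -0.41 ± 0.15, the neural crest factor Foxd3 at 0.32 ± 0.13 and Jun, the factor that drives the repair state, at 0.09 ± 0.04.
Of 36 further myelin and node proteins, 25 had positive values and the median was 0.04. The nodal spectrin Sptbn4, found on axons, stood at 40.9, 44.8 and 48.3 CPM in controls and 54.8, 60.2 and 54.4 CPM in stress pools (0.34 ± 0.07, adjusted p = 0.234, edgeR). DESeq2 called it higher (adjusted p = 0.00116, and up to 0.634 under other alternatives). The tetraspanin Cd151 stood at -0.12 ± 0.03, called lower by DESeq2 (adjusted p = 0.0176, and up to 0.634 under other alternatives), and the perineurial claudin Cldn1 at 0.27 ± 0.08. Of 15 myelin lipid enzymes 12 had negative values, with Aspa, an acetylaspartate hydrolase, at -0.20 ± 0.06 and the sterol enzyme Sqle at -0.07 ± 0.03.

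The 18 genes of non-myelinating and immature Schwann cells, 5 of which are members, had a median of -0.04, with 7 positive and 11 negative values and 0 called. The lowest p belonged to Etv5 (-0.27 ± 0.05, adjusted p = 0.234), Fabp7 (-0.55 ± 0.13, adjusted p = 0.273) and Ednrb (-0.20 ± 0.05, adjusted p = 0.298, all edgeR). Fabp7 and Ednrb are also satellite glia markers, a list in which 10 of 11 genes had negative values with a median of -0.16. DESeq2 called all 3 lower (adjusted p = 0.00036, 0.0392 and 0.0263), as did the replicate block with GC and length offsets for Fabp7 (0.0482), and the adjusted p of each reached 0.634 under another alternative.
The 20 repair genes, of which Shh, Sox2, Olfml2a and Gfra4 are members, had 7 positive and 13 negative values, a median of -0.06 and 0 called. Gap43, a growth cone protein that injured neurons and repair cells both make, stood at 197, 210 and 198 CPM in controls and 165, 173 and 170 CPM in stress pools (-0.25 ± 0.04, adjusted p = 0.103, edgeR). DESeq2 (2.72e-07) and edgeR without a low-count filter (0.0236) called it lower, and its adjusted p ranged from 2.72e-07 to 0.618 over the alternatives. The chemokine Ccl2 stood at -0.42 ± 0.16. Jun, Shh and Sox2 had positive values and Bdnf, Gap43 and Ccl2 negative ones, so the named repair genes had values of both signs.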

How the data were processed

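The authors deposited raw counts of reads per gene symbol, 1 file per library. FastQC, STAR 2.4 and HTSeq 0.9.1 and the builds GRCm39 and mm10 are named in the submitters' processing notes. Which build served which step, and how the counter handled strand, is not given in the sources used here. Libraries were stranded and poly-A selected, per the labels' protocols. Closing rows that name no gene, 15.3% to 16.2% of the reads listed, were dropped.

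The test was that of edgeR 4.0.16 under R 4.3.3 (TMM factors, filterByExpr with a minimum count of 10, quasi-likelihood F test). Benjamini-Hochberg adjustment was over all 20146 genes tested, with calls at an adjusted p under 0.05. Each SE was obtained as the absolute log2 value over the root of its F statistic. DESeq2 1.42.0 and limma 3.58.1 (voom with library quality weights) were run as alternatives. Longest transcripts and exon overlaps came from GENCODE M21, with a length and GC content for 95.2% of genes tested, and promoter windows from RefSeq (GRCm38.p6). No coordinates of the deposited genes are given, since the build is not known.

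Members, gene lists and tests were chosen with earlier results of these data known. All 33 members were named, and of every other list the genes that passed and up to 3 of smallest p, less 1 gene that is not reported here. Prph, Mog, Mobp, Olig2 and Ermn were shown as cell type markers. The labels give replicate numbers 1 to 3 in both groups. Across genes, the deviations of pools with the same number from their own group's mean correlated at 0.337, 0.218 and 0.13, and those of pools with different numbers at -0.3 to 0.122, the highest close to the lowest same-numbered value. Each same-numbered value was over 0.1, but so was the highest of the others. These values thus do not settle whether the numbers pair the pools, and the labels do not say so. The main test had no replicate block, which was run as an alternative.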

Additional observations from a re-analysis of the deposited data

How the results depend on the processing

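In edgeR, 0 members were called in either direction under all of its settings, and 17 of 33 members kept their sign under every alternative. DESeq2's Wald test called 1 member lower, Ncmap (log2 fold change -0.23, adjusted p = 0.0385), and it called 161 genes higher and 174 lower over all genes, beside 17 and 9 in the main analysis. The replicate block changed no member's call: the median of the members was -0.0509 with it, and Ncmap had the smallest adjusted p, 0.156. Unadjusted p-values under 0.05 were counted for 0 members with a higher and 4 with a lower level under DESeq2 size factors, 4 lower under the Wald test, 3 higher and 1 lower under limma voom with library quality weights, 0 higher and 4 lower with GC and length offsets, 2 higher and 8 lower with those and the replicate block, and 1 lower with both pools numbered 2 left out. With the offsets, blocked or not, 1 member (Gfra4) lay above all controls. With both pools numbered 2 left out, 1 lay above (3.03%) and 6 below (18.2%), beside 21.3% and 19.6% of all genes. Leaving out 1 pool at a time gave 0 to 3 members higher and 1 to 4 lower at an unadjusted p under 0.05, 0 to 5 above and 3 to 6 below all controls (12.6% to 15.4% and 12.5% to 15.8% of all genes), and a median from -0.0915 (without stress pool 2) to 0.0333 (without stress pool 3). Calls over all genes then ranged from 2 to 11 higher and 0 to 4 lower. Shares of all genes at an unadjusted p under 0.05 are not given for the alternatives. Member counts at that threshold were thus not set against a background there.

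Of the 16 members whose sign changed, 15 did so when 1 pool was left out. The log2 fold change then ranged from -0.1868 to 0.0541 for Mbp, -0.1064 to 0.0192 for Pmp22, -0.0889 to 0.0325 for Mal, -0.0476 to 0.1219 for Pllp, -0.4201 to 0.0855 for Mag, -0.1901 to 0.0142 for Cldn19, -0.2385 to 0.0717 for Gjb1 and -0.1581 to 0.0833 for Fa2h. It ranged from -0.0273 to 0.1155 for Ugt8a, -0.1508 to 0.0037 for Egr2, -0.149 to 0.0333 for Sox10, -0.0362 to 0.0889 for Lgi3, -0.1978 to 0.0095 for Gldn, -0.0105 to 0.0637 for Nfasc and -0.1062 to 0.3335 for Mpzl2. With both pools numbered 2 left out, Pllp stood at -0.0185, Adgrg6 at 0.0134 and Lgi3 at -0.0099. Nfasc stood at -0.0129 with GC and length offsets and -0.0133 with those and the block. The cause of these changes was not tested. Ncmap, Ncam1 and S100b lay below all controls under every setting. Most settings reuse the same CPM values or a subset of the pools, so they could hardly change this separation. Pmp2 had 7 to 27 counts per pool and the widest SE of the members, 0.37.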
